A study of Homo sapiens with 15 samples.

Results

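The 42 genes described here encode proteins that build ribosomes in the nucleolus, together with 3 known MYC targets that act in mitochondria or in folate uptake. They were chosen by a list of gene symbols. The rule uses no measured value, though the list was drawn up with earlier results of these data known. All 42 were found among the 57500 genes counted, and all 42 passed the filter on low counts that left 15517 genes for testing. Of the 42, 4 belong to transcription by RNA polymerases I and III, 7 to small nucleolar ribonucleoproteins (snoRNPs), 15 to small-subunit assembly, 9 to large-subunit assembly and 4 to nucleolar RNA-binding proteins.

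RNA sequencing was carried out on K562, an erythroleukaemia cell line, in 15 libraries that form 5 groups of 3. JQ1 is an inhibitor of BET bromodomain proteins, and JQ1-FCPF is the related compound that carries the tag FCPF in its name, as does the Cas9FCPF delivered to the cells by transfection. The groups were JQ1-FCPF with sgRNA (genotype Cas9FCPF+sgRNA, 1 µM JQ1-FCPF), JQ1-FCPF without sgRNA (Cas9FCPF-sgRNA, 1 µM JQ1-FCPF), JQ1 with sgRNA (Cas9FCPF+sgRNA, 1 µM JQ1), JQ1 without sgRNA (Cas9FCPF-sgRNA, 1 µM JQ1) and the control, labelled genotype WT and treatment NT. All 5 groups carry the time label 1 h. The labels write Cas9, although the study's title has dCas9, and the site to which the sgRNA was directed is not among them. The control is untreated by its labels but DMSO by the text of the series, and nothing says that control cells were transfected, so a comparison with control covers transfection, Cas9FCPF and compound together. The share of cells that took up Cas9FCPF or sgRNA is not given. Whether replicates came from separate cultures is not stated, so the spread between samples of the same group may be technical. The p-values reflect that spread within groups, estimated jointly over all 15 libraries.

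Ribosome production begins with transcription of the long ribosomal RNA precursor by RNA polymerase I and of 5S RNA by RNA polymerase III. snoRNPs modify the precursor, and the small-subunit processome and the large-subunit assembly factors fold and cleave it. The precursors of the small and large subunits then mature as separate particles on their way to the cytoplasm. MYC binds the promoters of many of these genes as a dimer with MAX at the E-box CACGTG and raises their transcription, and in leukaemia cells MYC is itself a well-known target of BET inhibitors.

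The promoters of 6 genes on which the results below turn are shown, with the E-box in capitals where a window holds it. Each window was taken from RefSeq (GRCh38.p14) on the strand of the gene, from 250 bases before the start of transcription to 50 bases after it. PPAN lies at chr19:10105973-10106272 (+), PPRC1 at chr10:102132790-102133089 (+), NOP2 at chr12:6568242-6568541 (-), WDR43 at chr2:28894417-28894716 (+), UTP20 at chr12:101279855-101280154 (+) and NOP56 at chr20:2652382-2652681 (+). PPAN, PPRC1, NOP2 and WDR43 stand for the genes called lower in JQ1-FCPF cells with sgRNA, and each was also called lower in both JQ1 groups against control. UTP20 and NOP56 stand for the genes called lower in JQ1 cells and not in JQ1-FCPF cells with sgRNA.
PPAN: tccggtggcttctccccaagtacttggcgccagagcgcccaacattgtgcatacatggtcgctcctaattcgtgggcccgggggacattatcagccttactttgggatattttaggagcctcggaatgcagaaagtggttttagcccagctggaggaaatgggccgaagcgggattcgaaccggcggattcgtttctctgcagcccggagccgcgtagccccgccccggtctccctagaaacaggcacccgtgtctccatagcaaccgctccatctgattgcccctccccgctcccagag
PPRC1: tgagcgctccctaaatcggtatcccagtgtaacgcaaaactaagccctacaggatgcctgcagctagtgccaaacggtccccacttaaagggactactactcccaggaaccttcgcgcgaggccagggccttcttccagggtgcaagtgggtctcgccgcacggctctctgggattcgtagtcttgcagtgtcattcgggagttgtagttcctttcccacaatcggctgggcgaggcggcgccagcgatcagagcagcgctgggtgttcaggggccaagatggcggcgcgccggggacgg
NOP2: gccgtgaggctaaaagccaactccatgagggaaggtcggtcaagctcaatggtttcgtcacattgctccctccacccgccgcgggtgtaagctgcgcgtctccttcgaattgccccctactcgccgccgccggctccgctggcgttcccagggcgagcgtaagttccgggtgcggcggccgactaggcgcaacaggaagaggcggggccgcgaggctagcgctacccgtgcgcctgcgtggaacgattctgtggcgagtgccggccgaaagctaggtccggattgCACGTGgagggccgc
WDR43: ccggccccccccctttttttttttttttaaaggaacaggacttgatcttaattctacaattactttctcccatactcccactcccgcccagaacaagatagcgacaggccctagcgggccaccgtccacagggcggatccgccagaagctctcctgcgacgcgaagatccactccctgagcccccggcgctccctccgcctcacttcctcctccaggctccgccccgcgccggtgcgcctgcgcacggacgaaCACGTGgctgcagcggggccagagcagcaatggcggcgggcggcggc
UTP20: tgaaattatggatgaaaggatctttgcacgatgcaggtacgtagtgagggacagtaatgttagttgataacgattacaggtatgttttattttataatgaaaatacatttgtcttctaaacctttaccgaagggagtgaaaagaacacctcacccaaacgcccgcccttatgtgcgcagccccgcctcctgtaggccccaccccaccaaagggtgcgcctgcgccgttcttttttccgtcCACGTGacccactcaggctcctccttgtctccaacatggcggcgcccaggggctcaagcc
NOP56: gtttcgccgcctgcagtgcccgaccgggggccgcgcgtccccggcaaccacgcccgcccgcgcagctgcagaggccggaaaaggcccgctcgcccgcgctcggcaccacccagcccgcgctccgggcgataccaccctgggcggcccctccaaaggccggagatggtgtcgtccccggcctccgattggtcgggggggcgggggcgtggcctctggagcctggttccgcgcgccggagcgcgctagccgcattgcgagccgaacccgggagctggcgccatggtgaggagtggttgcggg
Windows were found for 34 of the 42 genes. For the 8 genes with several windows, the one nearest to the gene start in the files was used. The E-box, which reads the same on both strands, was present in 12 of these 34 windows (35.3%) and in 7.26% of the 35116 windows of that length in the table. Counting every window, 17 of the 34 genes held it in at least 1, the added 5 being DDX21, GAR1, GNL3, LYAR and SLC19A1, and it was in 17 of their 44 windows (38.6%). The 12 genes with it in the nearest window were NOP14, UTP20, UTP4, WDR43, RRP9, RCL1, BYSL, PNO1, NAT10, FBL, PES1 and NOP2. Its first base lay between 16 bases before the start (UTP4) and 35 bases after it (NOP2). The windows of PPAN, PPRC1 and NOP56 hold no such letters, which says nothing of other sites.

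The libraries held 12625669 to 17544518 counts. Replicate 2 of JQ1-FCPF with sgRNA and replicate 1 of JQ1 with sgRNA stood apart from the other 2 libraries of their groups. The chi-square per degree of freedom between pairs of libraries was 21.2 and 21.6 for the first, beside 7.92 between its fellows. For the second it was 40.4 and 43.2, beside 3.75. Replicate 1 of JQ1-FCPF without sgRNA also differed from its fellows (17.7 and 17.4, beside 2.76). It was left out only where each library was left out in turn. In replicate 2 of JQ1-FCPF with sgRNA, 36 of the 42 genes had the lowest level of their group, against 40.1% of all tested genes. In replicate 1 of JQ1 with sgRNA this held for 31 of the 42, against 42.1% of all tested genes. These 2 libraries with sgRNA are the ones said below to stand apart. Counts of called genes in the comparisons of 2 groups that hold either of them are given below also without it. All 11 erythroid markers of K562 were above 1 CPM (read counts scaled to a common library size), with a summed level of 1750 to 2440 CPM. The labels call the cells lymphoblasts.

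In control cells the 42 genes covered a wide range of levels per length. Nucleophosmin (NPM1) was highest at 767 ± 51.7 CPM per kilobase of exon (SD, n = 3), followed by fibrillarin (FBL) at 263 ± 31.6 and nucleolin (NCL) at 211 ± 21.5. The lowest were the small-subunit factors UTP15 at 7.18 ± 0.352 and UTP20 at 4.45 ± 0.411 CPM per kilobase. MYC itself stood at 65.6 ± 2.91 CPM per kilobase. FBL and NCL differed by less than the sum of their SDs, whereas NPM1 lay far above both.

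The summed level of the 42 genes was 10560 ± 1510 CPM in JQ1-FCPF with sgRNA, 10890 ± 350 CPM in JQ1-FCPF without sgRNA, 8938 ± 648 CPM in JQ1 with sgRNA, 9575 ± 186 CPM in JQ1 without sgRNA and 10980 ± 661 CPM in control (SD, n = 3 each). The abundant NPM1 and NCL make up much of this sum. The median gene of the 42, taken as the log2 difference of each library from the control mean, gave -0.08, -0.42 and -0.05 in JQ1-FCPF with sgRNA, 0.04, -0.08 and -0.02 in JQ1-FCPF without sgRNA, -0.50, -0.25 and -0.29 in JQ1 with sgRNA, -0.22, -0.30 and -0.30 in JQ1 without sgRNA, and -0.10, 0.07 and 0.00 in control. All 6 JQ1 libraries therefore lay below all 3 control libraries by this measure, and the JQ1-FCPF libraries without sgRNA lay among the control libraries. With sgRNA, replicate 2 under JQ1-FCPF lay below the control range and replicates 1 and 3 lay within it. Levels are shares of the RNA in each library, so fewer cells of a type and less RNA per cell cannot be told apart, and a change in total RNA would not be seen.

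**Figure D1:**
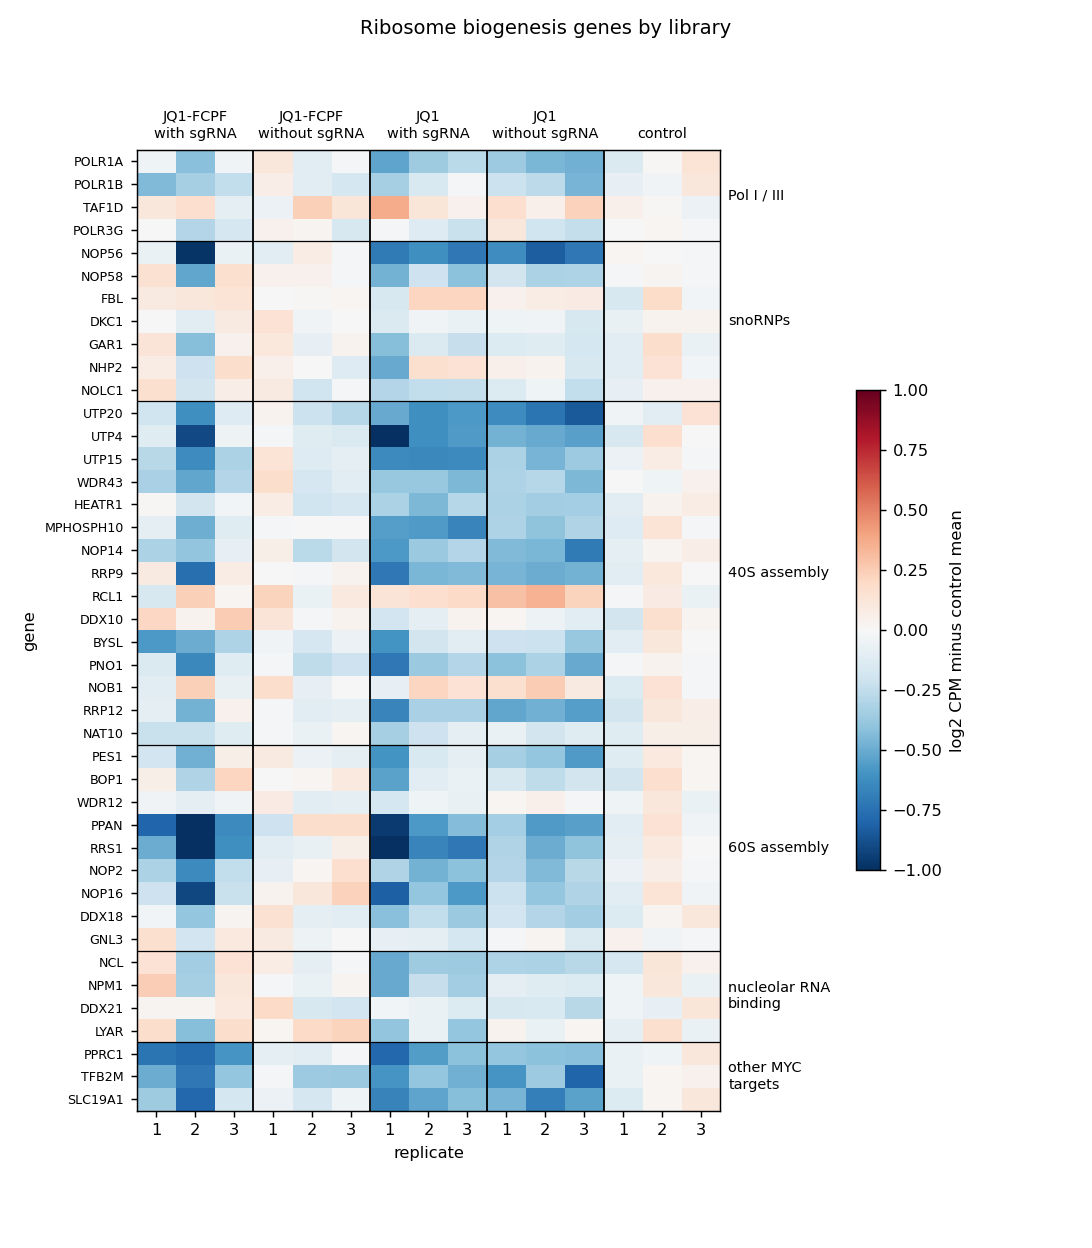
Log2 CPM of each of the 42 genes (grouped by role, down the page) in each of the 15 libraries (across), minus the mean of the 3 control libraries, with colours ending at -1 and 1. The JQ1 columns are blue for most small-subunit factors, replicate 2 of JQ1-FCPF with sgRNA is bluer than its 2 fellow libraries, and PPAN, RRS1 and PPRC1 are blue in all 3 of these libraries.

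MYC, the factor against which these genes were set, was lowest in JQ1-FCPF cells with sgRNA. It had 60.2, 57.3 and 61 CPM in JQ1-FCPF with sgRNA, 197, 136 and 171 CPM in JQ1-FCPF without sgRNA, 103, 123 and 156 CPM in JQ1 with sgRNA, 156, 161 and 143 CPM in JQ1 without sgRNA, and 195, 189 and 206 CPM in control. The 3 libraries of JQ1-FCPF with sgRNA were close together and below all 12 others. MYC fell 2.83-fold with against without sgRNA under JQ1-FCPF (log2 fold change -1.50 ± 0.14 SE, adjusted p = 3.67e-07, edgeR with Benjamini-Hochberg adjustment over all genes tested).

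The first question was what the sgRNA added under JQ1-FCPF. With sgRNA, 7 of the 42 genes were lower than without it and none was higher, at an edgeR quasi-likelihood adjusted p under 0.05. Among all tested genes 4.20% were called lower and 2.06% higher (651 and 319 genes, or 775 and 187 with scaling by library totals alone). Of the 7, PPAN, RRS1, NOP2 and NOP16 act in large-subunit assembly, UTP15 and WDR43 belong to the part of the small-subunit processome that also acts in ribosomal RNA transcription, and PPRC1 is a coactivator of genes for mitochondria. The 4 genes of RNA polymerases I and III, the 7 snoRNP genes and the 4 nucleolar RNA-binding proteins had no call. The median log2 fold change of the 42 was -0.13, beside 0.007 over all tested genes, and 33 of the 42 values were negative, beside 49% of all tested genes.

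PPAN, the human counterpart of Drosophila Peter pan and a large-subunit assembly factor, had the largest difference. It measured 31.6, 21 and 35.3 CPM with sgRNA and 47.6, 62.3 and 62.2 CPM without sgRNA. All 3 libraries with sgRNA lay below all 3 without it. PPAN fell 1.95-fold (log2 fold change -0.96 ± 0.16 SE, 95% interval -1.30 to -0.63, edgeR Benjamini-Hochberg adjusted p = 0.000622). The gene lies at chr19:10106289-10111634 (+, GRCh38), and its exons overlap those of the PPAN-P2RY11 readthrough gene and of P2RY11 on the same strand, so counts may be shared between them.

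RRS1, which helps to bring the 5S ribonucleoprotein into the large-subunit precursor, measured 57.5, 40.4 and 52.9 CPM with sgRNA and 75.1, 77.1 and 84.3 CPM without. Again the groups did not overlap. RRS1 fell 1.57-fold (log2 fold change -0.65 ± 0.12 SE, interval -0.90 to -0.39, edgeR Benjamini-Hochberg adjusted p = 0.00222). Its exons overlap those of ADHFE1 on the same strand. PPRC1, a relative of PGC-1 that works as a coactivator of mitochondrial biogenesis, had 58.2, 56.9 and 64.1 CPM with sgRNA and 90.6, 89.1 and 95.4 CPM without. The spread within each group was small beside the gap between them. PPRC1 fell 1.53-fold (log2 fold change -0.62 ± 0.10 SE, interval -0.82 to -0.41, edgeR Benjamini-Hochberg adjusted p = 0.00043). It lies at chr10:102132994-102150331 (+, GRCh38).

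The other 4 genes called were nearer to the threshold. NOP16, a large-subunit factor, had 101, 61.7 and 99.4 CPM with sgRNA and 120, 126 and 136 CPM without (log2 fold change -0.54 ± 0.14 SE, edgeR Benjamini-Hochberg adjusted p = 0.0266). NOP2, a methyltransferase of large-subunit ribosomal RNA, had 99.6, 79.8 and 104 CPM with sgRNA and 118, 126 and 140 CPM without (-0.43 ± 0.10 SE, adjusted p = 0.0144). In both genes replicate 2 with sgRNA was the lowest of the 6 libraries, and the groups did not overlap. UTP15 had 37.5, 29.3 and 36.3 CPM with sgRNA and 49.8, 41.4 and 42.6 CPM without (-0.38 ± 0.11 SE, adjusted p = 0.0369), and WDR43 had 94.3, 82.7 and 96.4 CPM with sgRNA and 133, 105 and 110 CPM without (-0.35 ± 0.10 SE, adjusted p = 0.0368). These groups did not overlap either. In all, 13 of the 42 genes were lower in every library with sgRNA than in every library without it and 1 was higher, beside 12.6% and 9.98% of all tested genes.

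Several central members were close to their level without sgRNA. FBL, the methyltransferase of box C/D snoRNPs, had 607, 619 and 625 CPM with sgRNA and 573, 574 and 579 CPM without (log2 fold change 0.10, interval -0.13 to 0.33). Every FBL library with sgRNA was slightly above those without it. NPM1, a chaperone of nucleolar particles, had 3480, 2340 and 3170 CPM with sgRNA and 2900, 2810 and 3010 CPM without (0.05). Replicate 2 alone lay below the NPM1 libraries without sgRNA. NOP56, a core protein of box C/D snoRNPs, showed the same pattern, with 310, 164 and 311 CPM with sgRNA and 302, 341 and 323 CPM without (-0.30 ± 0.15 SE, edgeR Benjamini-Hochberg adjusted p = 0.268).

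Without replicate 2 of JQ1-FCPF with sgRNA, PPAN (log2 fold change -0.77, edgeR Benjamini-Hochberg adjusted p = 0.00136), RRS1 (-0.51, adjusted p = 0.00628) and PPRC1 (-0.58, adjusted p = 0.00095) were still called and the other 4 were not. The median of the 42 was then -0.03, with 22 of 42 values negative, and 4.29% of all tested genes were called lower. Without replicate 3 of JQ1-FCPF without sgRNA the same 3 genes were called, while the 970 calls over all tested genes became 428. Without both libraries that stood apart 7 genes were called lower, beside 6.62% of all tested genes. These were PPAN, RRS1, PPRC1, NOP2, NOP16, WDR43 and BYSL. PPAN, RRS1 and PPRC1 passed under all 13 alternatives tried. Of the K562 markers, 4 of 11 were called lower with sgRNA, among them KLF1 (83.9 ± 4.82 against 142 ± 8.12 CPM) and LMO2 (40.4 ± 3.82 against 67.9 ± 4.97 CPM). The summed level of 5 fibroblast markers was 4.44 to 6.44 CPM with sgRNA and 2.10 to 2.27 CPM without, and COL1A1 was the only one above 1 CPM. The part of these markers in the results was not tested.

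**Figure D2:**
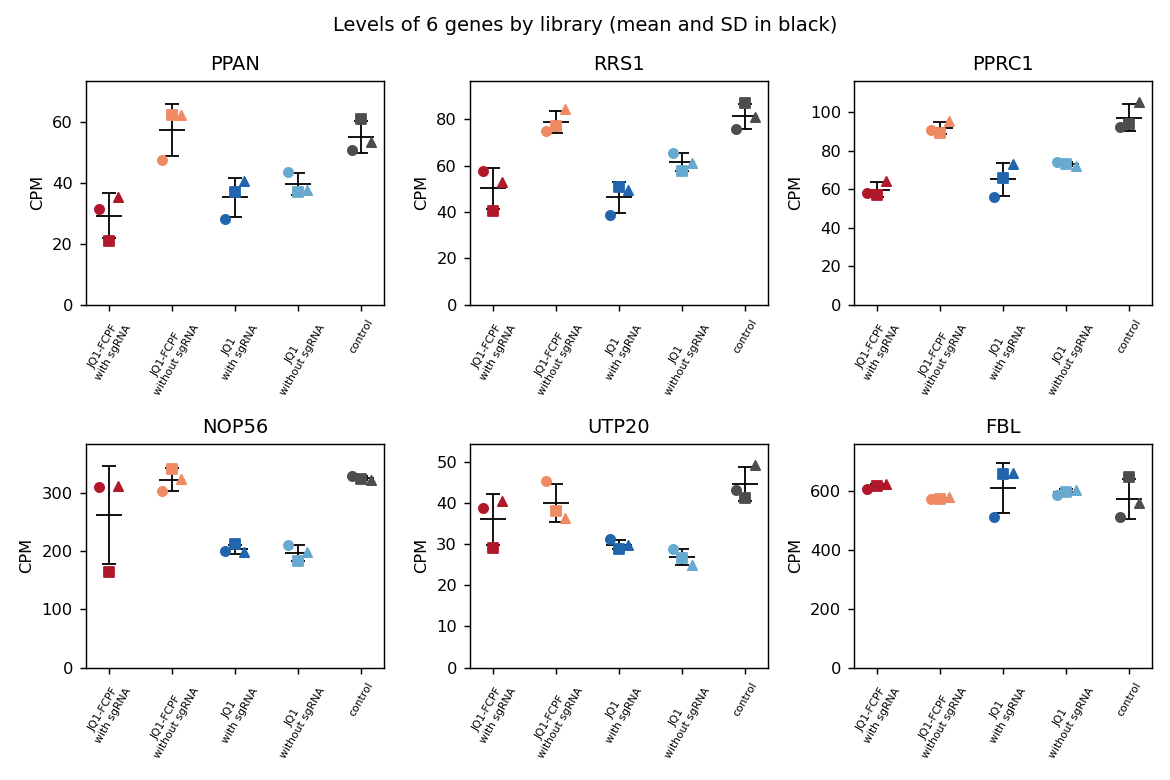
Levels of 6 genes in CPM (vertical axis, from 0) in each library of the 5 groups (horizontal axis), with symbols for replicates 1 (circle), 2 (square) and 3 (triangle) and the mean and SD of 3 libraries in black. PPAN, RRS1 and PPRC1 were low in JQ1-FCPF with sgRNA and in both JQ1 groups, NOP56 was low in both JQ1 groups and in 1 library of JQ1-FCPF with sgRNA, and FBL lay between 513 and 661 CPM in all 15 libraries.

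Under JQ1 the sgRNA made no detectable difference to any of the 42 genes. None was called with against without sgRNA by edgeR, beside 0.0129% of all tested genes lower and 0% higher, and DESeq2 called none either. At an unadjusted p under 0.05 there were 3 of the 42, beside 1264 of the 15517 tested genes. That count is read as no result about the 42. The 3 were RRS1 (log2 fold change -0.41, edgeR Benjamini-Hochberg adjusted p = 0.502), UTP15 (-0.26, adjusted p = 0.596) and MPHOSPH10 (-0.26, adjusted p = 0.595), a subunit of the small-subunit processome. The median of the 42 was -0.06 with 29 values negative, or -0.04 with 23 negative without replicate 1 of JQ1 with sgRNA, where none was called either. Without overlap between the groups 9 genes were lower and 2 higher, beside 8.51% and 6.94% of all tested genes. PPAN had 28.3, 36.9 and 40.6 CPM with sgRNA and 43.7, 37.2 and 37.7 CPM without. These groups overlapped, and replicate 1 with sgRNA was the lowest.

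Whether the sgRNA effect differed between the compounds was tested by the interaction, the sgRNA effect under JQ1-FCPF minus that under JQ1. None of the 42 genes was called by edgeR or DESeq2, beside 0.593% of all tested genes called more negative and 0.193% more positive under JQ1-FCPF. At an unadjusted p under 0.05 there were 7 of the 42, beside 2162 of the 15517 tested genes. That count is read as no result about the 42. The 7, all negative, were PPAN, PPRC1, POLR1B, NOP2, TFB2M, BYSL and WDR43. PPAN had the largest difference (log2 -0.80 ± 0.23 SE, interval -1.27 to -0.33, edgeR Benjamini-Hochberg adjusted p = 0.101), followed by PPRC1 (-0.45 ± 0.14 SE, interval -0.74 to -0.16, adjusted p = 0.144). Without replicate 1 of JQ1 with sgRNA, both PPAN and PPRC1 were called, beside 0.68% of all tested genes more negative. MYC itself was called (-1.24 ± 0.19 SE, adjusted p = 0.00187). The calls under JQ1-FCPF and their absence under JQ1 are thus not shown to differ for these genes, with the intervals given.

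In JQ1 cells without sgRNA, genes of small-subunit assembly fell against control. Of the 42 genes 19 (45.2%) were lower and none higher, beside 6.23% of all tested genes lower and 6.07% higher. The 19 comprised 10 of 15 small-subunit factors, 4 of 9 large-subunit factors, all 3 MYC targets of mitochondria and folate transport, POLR1A of 4 polymerase genes and NOP56 of 7 snoRNP genes. None of the 4 nucleolar RNA-binding proteins was called. NCL had 1170, 1170 and 1200 CPM in JQ1 without sgRNA and 1290, 1580 and 1500 CPM in control. NPM1 had 2760, 2710 and 2670 CPM in JQ1 without sgRNA and 2860, 3160 and 2790 CPM in control. These genes and DDX21 were lower without overlap, while LYAR overlapped. NCL was called lower without both libraries that stood apart, beside 13.1% of all tested genes. The median log2 fold change of the 42 was -0.30, beside values within 0.012 of 0 for the median over all tested genes in every comparison, and 28 genes were lower and 2 higher without overlap, beside 20.6% and 20.4% of all tested genes.

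UTP20, a large scaffold protein of the small-subunit processome at chr12:101280109-101386616 (+, GRCh38), had the largest fall. It measured 28.8, 26.7 and 24.9 CPM in JQ1 without sgRNA and 43.3, 41.3 and 49.2 CPM in control. The groups were well separated. UTP20 fell 1.67-fold (log2 fold change -0.74 ± 0.12 SE, interval -0.99 to -0.48, edgeR Benjamini-Hochberg adjusted p = 0.00189). NOP56, at chr20:2652145-2658393 (+, GRCh38), had 210, 183 and 198 CPM in JQ1 without sgRNA and 329, 324 and 322 CPM in control. Its control libraries were within a few CPM of each other, far above the JQ1 libraries. NOP56 fell 1.65-fold (-0.72 ± 0.16 SE, adjusted p = 0.00639). The gene hosts 5 snoRNAs in its span, and the use of strand and of intronic reads in counting is not given in the sources used here.

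TFB2M, a mitochondrial transcription factor, had 40.9, 48 and 35.4 CPM in JQ1 without sgRNA and 59.2, 62.3 and 63.8 CPM in control (log2 fold change -0.58 ± 0.12 SE, edgeR Benjamini-Hochberg adjusted p = 0.00572). SLC19A1, the reduced folate carrier, had 94.8, 81.4 and 90.5 CPM in JQ1 without sgRNA and 120, 133 and 142 CPM in control (-0.56 ± 0.12 SE, adjusted p = 0.00656). Neither gene overlapped between the groups. NOP14, a small-subunit processome protein, had 103, 102 and 85.9 CPM in JQ1 without sgRNA and 132, 143 and 147 CPM in control (-0.54 ± 0.11 SE, adjusted p = 0.00545). RRP12, which acts in the export of precursor subunits, had 83.5, 86 and 82.1 CPM in JQ1 without sgRNA and 106, 131 and 126 CPM in control (-0.53 ± 0.12 SE, adjusted p = 0.00887). UTP4, a partner of UTP15 in the processome, had 108, 106 and 103 CPM in JQ1 without sgRNA and 134, 168 and 150 CPM in control (-0.51 ± 0.16 SE, adjusted p = 0.0371). In each of these, every JQ1 library lay below every control library. PPAN was called near the threshold (-0.48 ± 0.16 SE, adjusted p = 0.0486).

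The other 11 genes called lower in JQ1 without sgRNA had log2 fold changes of -0.47 to -0.33. They were RRP9 (a protein of the U3 snoRNP), POLR1A (the largest subunit of RNA polymerase I), PES1 (which forms a complex with BOP1 and WDR12), PNO1, PPRC1, RRS1, UTP15, WDR43, MPHOSPH10, NOP2 and HEATR1. RCL1, a small-subunit processome protein, went the other way with 50.9, 52.9 and 48.3 CPM in JQ1 without sgRNA and 41.2, 43.7 and 39.6 CPM in control. Its groups did not overlap, but it was not called (0.29 ± 0.11 SE, edgeR Benjamini-Hochberg adjusted p = 0.0751). NPM1 (-0.11) and FBL (0.06) were near 0, and MYC stood at -0.36 ± 0.13 SE (adjusted p = 0.0739). The count of 19 leaned on every library. Without control replicates 1, 2 and 3 it was 12, 9 and 4. Without JQ1 replicates 1, 2 and 3 it was 8, 7 and 6. Over all tested genes the 1908 calls also fell, to between 430 and 1338 with any 1 of these libraries left out. The median log2 fold change of the genes described here then stayed between -0.35 and -0.26, beside -0.3 in the main fit. Without both libraries that stood apart, 25 of these genes were called lower and 1 higher, beside 13.1% and 13.8% of all tested genes. UTP20, NOP56, NOP14 and TFB2M were called under all 13 alternatives. Of the 11 K562 markers, EPOR (log2 fold change -0.64) and TFRC (-0.63) were called lower in JQ1 without sgRNA and HBE1 (0.50) higher. Mitochondrial genes took 2.31, 2.34 and 3.22% of counts in JQ1 without sgRNA and 5.98, 3.24 and 3.67% in control, without overlap. The part of either in the results was not tested.

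**Figure D3:**
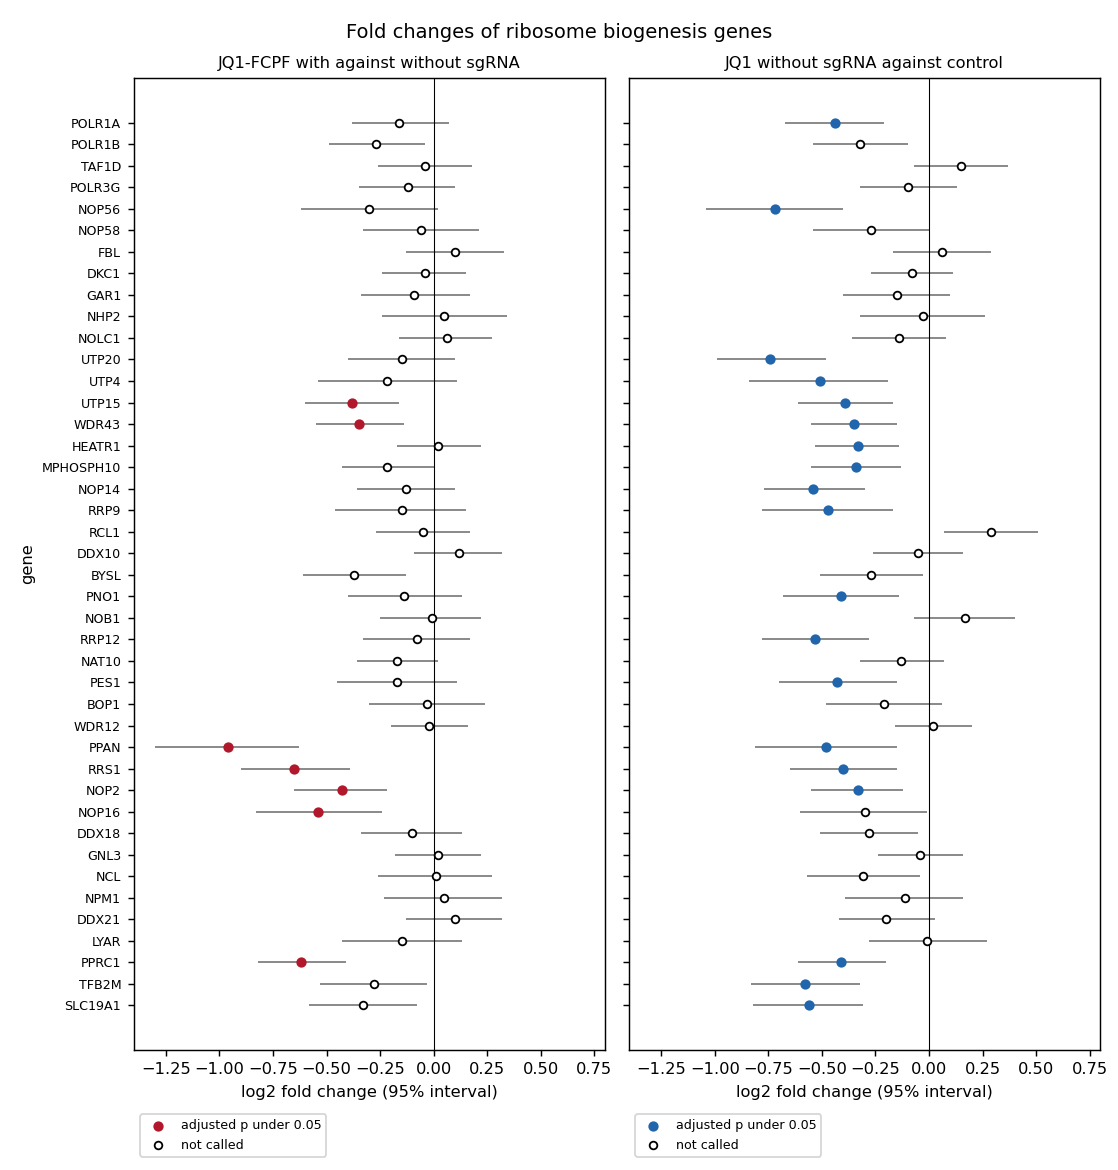
Log2 fold change (horizontal axis) with its 95% interval for each of the 42 genes, for JQ1-FCPF with against without sgRNA (left) and JQ1 without sgRNA against control (right), with filled points for an adjusted p under 0.05. The 7 filled points on the left are led by PPAN at -0.96, and the 19 on the right are led by UTP20 at -0.74 and NOP56 at -0.72.

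JQ1 with sgRNA against control gave 21 of 42 genes lower (50%) and none higher, beside 7.04% of all tested genes lower and 7.21% higher. Again 10 of 15 small-subunit factors and all 3 mitochondrial and transport genes were lower, with 5 of 9 large-subunit factors, 1 of 4 polymerase genes, 1 of 7 snoRNP genes and 1 of 4 nucleolar RNA-binding proteins. The median log2 fold change of the 42 was -0.36, and 27 genes were lower and 1 higher without overlap, beside 17.2% and 17.4% of all tested genes. Both JQ1 comparisons use the same control libraries, so they are not independent of each other.

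RRS1 had the largest difference, with 38.6, 51 and 49.5 CPM in JQ1 with sgRNA and 75.9, 86.9 and 80.9 CPM in control. The highest JQ1 library was well under the lowest control library. RRS1 fell 1.75-fold (log2 fold change -0.81 ± 0.12 SE, interval -1.06 to -0.56, edgeR Benjamini-Hochberg adjusted p = 0.000735). UTP4 had 73.6, 98.5 and 102 CPM in JQ1 with sgRNA, against its control levels given above (-0.73 ± 0.16 SE, adjusted p = 0.00599), and replicate 1 was the lowest. NOP56 had 199, 212 and 198 CPM in JQ1 with sgRNA (-0.68 ± 0.15 SE, adjusted p = 0.00784), close to its level in JQ1 without sgRNA. PPAN, with the levels given above, fell by 0.65 ± 0.16 SE on the log2 scale (adjusted p = 0.011) and its libraries lay below the control values of 51, 61 and 53.6 CPM.

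UTP15 had 29.1, 28.9 and 29.2 CPM in JQ1 with sgRNA and 43.5, 47.8 and 44.9 CPM in control (log2 fold change -0.64 ± 0.11 SE, edgeR Benjamini-Hochberg adjusted p = 0.00125). MPHOSPH10 had 79.8, 78.5 and 73.7 CPM in JQ1 with sgRNA and 107, 129 and 116 CPM in control (-0.60 ± 0.10 SE, adjusted p = 0.00153). Both genes varied little between the JQ1 libraries. NOP16 had 66, 89 and 78.1 CPM in JQ1 with sgRNA and 109, 128 and 114 CPM in control (-0.59 ± 0.14 SE, adjusted p = 0.0107), and UTP20 had 31.2, 28.9 and 29.7 CPM in JQ1 with sgRNA (-0.58 ± 0.12 SE, adjusted p = 0.00517). The other 13 genes called had log2 fold changes of -0.57 (PPRC1) to -0.35 (DDX18 and HEATR1). They included NCL, an abundant nucleolar RNA-binding protein, with 1020, 1130 and 1130 CPM in JQ1 with sgRNA and 1290, 1580 and 1500 CPM in control (-0.42 ± 0.13 SE, adjusted p = 0.0328).

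NPM1 (log2 fold change -0.36, edgeR Benjamini-Hochberg adjusted p = 0.0752) and NOP58, the partner of NOP56 (-0.36, adjusted p = 0.0654), were not called in JQ1 with sgRNA against control. FBL, which shares a particle with NOP56 and NOP58, stood at 0.09 (adjusted p = 0.613), and TAF1D, a subunit of the RNA polymerase I factor SL1, at 0.19 (adjusted p = 0.25). MYC fell by 0.63 ± 0.13 SE on the log2 scale (adjusted p = 0.00486). Without control replicate 2 or 3 the count of 21 became 10 in each case. Over all tested genes the 2211 calls became 726 without control replicate 3. Without JQ1 replicate 1 it was 14, with a median of -0.31, and MPHOSPH10, NOP56, PPRC1, RRS1, SLC19A1, UTP15, UTP20 and UTP4 were called under all 13 alternatives. Beside the 14 genes, 5.70% of all tested genes were then called lower and 6.11% higher. Without both libraries that stood apart 24 genes were called lower, beside 11.3% of all tested genes lower and 11.5% higher. Of the K562 markers, 4 of 11 were called lower in JQ1 with sgRNA, TFRC (-0.57) and EPOR (-0.50) among them, and HBE1 (0.47) higher. The fibroblast markers summed to 3.75 to 4.68 CPM in JQ1 with sgRNA and 1.82 to 3.54 CPM in control, and COL1A1 was higher (0.73, adjusted p = 0.0431), a call lost under 8 of 13 alternatives. Mitochondrial genes took 7.46% of counts in replicate 1 of JQ1 with sgRNA, 3.06 and 2.79% in replicates 2 and 3, and 5.98, 3.24 and 3.67% in control. The part of these values in the results was not tested.

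JQ1-FCPF without sgRNA could not be told from control at these genes. None of the 42 was called by edgeR and none by DESeq2, beside 0.00644% of all tested genes lower and 0% higher. None reached an unadjusted p under 0.05, beside 285 of the 15517 tested genes. The log2 fold changes ran from -0.24 to 0.15 with a median of -0.02. None of the 42 was separated without overlap in either direction, beside 3.51% of all tested genes lower and 3.95% higher. UTP20 had 45.4, 38.2 and 36.5 CPM and NOP56 had 302, 341 and 323 CPM in JQ1-FCPF without sgRNA, which overlapped the control values of UTP20 and those of NOP56. MYC stood at -0.22 ± 0.13 SE (edgeR Benjamini-Hochberg adjusted p = 1).

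JQ1-FCPF with sgRNA against control gave 9 of 42 genes lower (21.4%) and none higher, beside 4.79% of all tested genes lower and 2.42% higher (744 and 375 genes, or 862 and 246 with scaling by library totals alone). The median log2 fold change of the 42 was -0.16, and 15 genes were lower and none higher without overlap, beside 13.3% and 11.8% of all tested genes. PPAN fell by 0.91 ± 0.16 SE on the log2 scale (edgeR Benjamini-Hochberg adjusted p = 0.001), PPRC1 by 0.70 ± 0.10 SE (adjusted p = 9.02e-05) and RRS1 by 0.69 ± 0.12 SE (adjusted p = 0.00105). PPRC1 had control values of 92, 93.8 and 105 CPM, so these 3 genes again did not overlap between groups.

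TFB2M had 43.9, 37.7 and 47.5 CPM in JQ1-FCPF with sgRNA, below its control libraries (log2 fold change -0.52 ± 0.12 SE, edgeR Benjamini-Hochberg adjusted p = 0.0098). BYSL, a late small-subunit assembly factor, had 57, 60.5 and 69 CPM in JQ1-FCPF with sgRNA and 78.8, 92.6 and 85.4 CPM in control (-0.46 ± 0.12 SE, adjusted p = 0.0171). SLC19A1 had 102, 75.8 and 116 CPM in JQ1-FCPF with sgRNA (-0.42 ± 0.12 SE, adjusted p = 0.0377), and replicate 2 was the lowest. UTP15 (-0.40 ± 0.11 SE, adjusted p = 0.0235), NOP2 (-0.39 ± 0.10 SE, adjusted p = 0.0226) and WDR43 (-0.38 ± 0.10 SE, adjusted p = 0.021) complete the 9. MYC fell 3.31-fold (adjusted p = 4.37e-08). Without replicate 2 of JQ1-FCPF with sgRNA 5 genes were called (PPAN, RRS1, PPRC1, TFB2M and BYSL) with a median of -0.05, and without control replicates 2 and 3 the counts were 5 and 3. Beside those 5 genes without replicate 2, 4.52% of all tested genes were called lower. Without both libraries that stood apart 9 genes were called lower, beside 6.88% of all tested genes. Without control replicate 3 the 1119 calls over all tested genes became 542. Of the K562 markers, 5 of 11 were called lower in JQ1-FCPF with sgRNA, among them KLF1 (-0.88), LMO2 (-0.77) and TFRC (-0.69). The fibroblast markers summed to 4.44 to 6.44 CPM in JQ1-FCPF with sgRNA and 1.82 to 3.54 CPM in control. COL1A1 was higher (1.13, adjusted p = 0.0041), but not with only the groups compared in the fit (adjusted p = 0.0597). The part of these markers in the results was not tested.

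The 2 compounds were then compared at the same dose and time, in 2 pairs, and p-values were adjusted over all genes within each pair. Without sgRNA, 12 of the 42 genes were higher in JQ1-FCPF cells than in JQ1 cells and none was lower, beside 4.11% of all tested genes higher and 3.69% lower. The 12 were 6 small-subunit factors (UTP20, UTP15, WDR43, NOP14, RRP9 and RRP12), PPAN, NOP2, NOP56, POLR1A, PPRC1 and SLC19A1. The median log2 fold change of the 42 was 0.26, and 27 genes were higher and 2 lower without overlap, beside 18% and 18.2% of all tested genes. NOP56 differed most (0.71 ± 0.16 SE, interval 0.38 to 1.03, edgeR Benjamini-Hochberg adjusted p = 0.0125), with 302 CPM as the lowest library under JQ1-FCPF and 210 CPM as the highest under JQ1. UTP20 was next (0.58 ± 0.12 SE, interval 0.32 to 0.84, adjusted p = 0.0111), followed by PPAN (0.54 ± 0.16 SE, interval 0.21 to 0.86, adjusted p = 0.0404).

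RRP9 (log2 fold change 0.48 ± 0.15 SE, edgeR Benjamini-Hochberg adjusted p = 0.0485) had 88.4, 87.1 and 90.6 CPM in JQ1-FCPF without sgRNA and 64.1, 62.6 and 63.5 CPM in JQ1 without sgRNA, with little spread in either group. SLC19A1 (0.47 ± 0.12 SE, adjusted p = 0.0249), RRP12 (0.45 ± 0.12 SE, adjusted p = 0.0316), POLR1A (0.43 ± 0.11 SE, adjusted p = 0.0236) and NOP14 (0.40 ± 0.11 SE, adjusted p = 0.0338) were higher too. No difference was detected for MYC (0.14 ± 0.13 SE, interval -0.14 to 0.41, adjusted p = 0.554), FBL (-0.06, interval -0.28 to 0.17) or NPM1 (0.10, interval -0.18 to 0.38), and these intervals leave room for differences of either sign. The count of 12 also leaned on every library. Without JQ1 replicates 1, 2 and 3 it was 2, 0 and 1. Without JQ1-FCPF replicates 1, 2 and 3 it was 4, 2 and 1. Over all tested genes the 1210 calls became 76 without JQ1 replicate 2, and at most 973 with any 1 of these libraries left out. Of the K562 markers, EPOR (0.54) was called higher and HBE1 (-0.43) lower in JQ1-FCPF cells, and their part in the results was not tested.

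With sgRNA, no gene of the 42 was called between the compounds, beside 1.18% of all tested genes higher and 1.77% lower in JQ1-FCPF (183 and 275 genes, or 118 and 409 with scaling by library totals alone). At an unadjusted p under 0.05 there were 13 of the 42, beside 2833 of the 15517 tested genes. All 13 were higher in JQ1-FCPF, led by UTP4 (log2 fold change 0.41, interval 0.08 to 0.74) and NCL (0.41, interval 0.14 to 0.67, edgeR Benjamini-Hochberg adjusted p = 0.0832). DESeq2 called 4. The median of the 42 was 0.15, and 6 genes were higher and none lower without overlap, beside 7.11% and 8.39% of all tested genes. MYC was the other way, lower in JQ1-FCPF by 1.10 ± 0.13 SE on the log2 scale (edgeR Benjamini-Hochberg adjusted p = 8.14e-05). For PPAN (-0.26, interval -0.60 to 0.07), PPRC1 (-0.12, interval -0.33 to 0.09), RRS1 (0.12, interval -0.14 to 0.37) and NOP2 (0.00, interval -0.22 to 0.21) no difference was detected. Without replicate 2 of JQ1-FCPF with sgRNA, 20 genes were called, all higher in JQ1-FCPF, with a median of 0.27. Beside that count, 8.17% of all tested genes were then called higher and 9.18% lower. Without replicate 1 of JQ1 with sgRNA, 1 gene was called (MPHOSPH10), beside 1.78% of all tested genes higher and 1.84% lower. Without both libraries 18 were called, all higher, beside 9.76% higher and 10.4% lower. Of the K562 markers, LMO2 (-0.45) and TAL1 (-0.50) were called lower in JQ1-FCPF with sgRNA, and their part in the results was not tested.

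Over the 8 comparisons of 2 groups, 23 of the 42 genes were called at least once and 19 never, beside 3894 of all tested genes (25.1%) called at least once. PPAN, NOP2, PPRC1, UTP15 and WDR43 were called in 5 of the 8 comparisons, many of which share libraries. All 3 MYC targets of mitochondria and folate transport were called at least once. Of the 7 snoRNP genes 6 were never called, though most of all tested genes were never called either. DKC1, GAR1 and NHP2, which with NOP10 form the box H/ACA particle that makes pseudouridine, were all among the 6. NHP2 kept log2 fold changes between -0.04 and 0.06 in the 8 comparisons and DKC1, the pseudouridine synthase, between -0.08 and 0.12. NOLC1, a chaperone of snoRNPs, ran from -0.26 to 0.28. With replicate 2 of JQ1-FCPF with sgRNA left out, GAR1, NOLC1 and NOP58 were called in JQ1-FCPF against JQ1 with sgRNA. All were higher in JQ1-FCPF, beside 8.17% of all tested genes called higher.

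Never called either were POLR1B, TAF1D and POLR3G of the polymerase genes. POLR3G, a subunit of one form of RNA polymerase III, ran from -0.15 to 0.07. Of the small-subunit factors, RCL1, DDX10, NAT10 (the cytidine acetyltransferase of ribosomal RNA) and NOB1 (the endonuclease of the last cleavage of small-subunit RNA) had no call, with NOB1 between -0.13 and 0.17. Of the large-subunit factors, BOP1, WDR12 and GNL3 (nucleostemin) had none, although PES1, which binds BOP1 and WDR12, was called once. WDR12 ran from -0.12 to 0.04. NPM1, the RNA helicase DDX21 and the nucleolar protein LYAR complete the 19, and NPM1 had the widest range of all 19, -0.36 to 0.39. DDX10, BOP1, NPM1 and LYAR were also called higher in JQ1-FCPF than in JQ1 with sgRNA once replicate 2 was left out. Without both libraries that stood apart, GNL3 was called in that comparison. POLR1B (lower) and RCL1 (higher) were then called in JQ1 without sgRNA against control, beside 13.1% of all tested genes lower and 13.8% higher.

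Set beside MYC, the 42 genes did not follow the order of MYC levels across all 5 groups. With JQ1-FCPF with sgRNA set aside, mean MYC was 197 CPM in control, 168 in JQ1-FCPF without sgRNA, 153 in JQ1 without sgRNA and 128 in JQ1 with sgRNA. The mean summed level of the 42 fell in the same order (10980, 10890, 9575 and 8938 CPM), though libraries of some neighbouring groups overlapped. The JQ1-FCPF libraries with sgRNA had the lowest MYC of all, at 57.3 to 61 CPM, yet 2 of them had medians of -0.08 and -0.05, above all 6 JQ1 libraries, in which MYC ranged over 103 to 161 CPM. Within groups, the change in log2 level per unit of MYC log2 CPM was fitted for 15516 genes with the group means in the model. This slope was positive for 36 of the 42 (85.7%), beside 52.6% of all genes, with a median of 0.29, beside 0.03. None of the 42 and none of the 15516 genes was called by edgeR, while 10 of the 42 and 2437 of all genes had an unadjusted p under 0.05. NOP14 had a slope of 0.59 ± 0.19 SE (edgeR Benjamini-Hochberg adjusted p = 0.132), and TAF1D, whose span hosts 8 snoRNAs, one of -0.58 ± 0.17 SE (adjusted p = 0.118), the only negative one of the 10. The slope rests on few libraries in which MYC varied within a group. Without both libraries that stood apart 28 of 42 were positive, with a median of 0.16, and without replicate 2 of JQ1-FCPF with sgRNA 1 of the 42 and 513 of all genes were called. That gene was TAF1D, with a negative slope (-0.60 ± 0.17 SE, adjusted p = 0.0464).

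**Figure D4:**
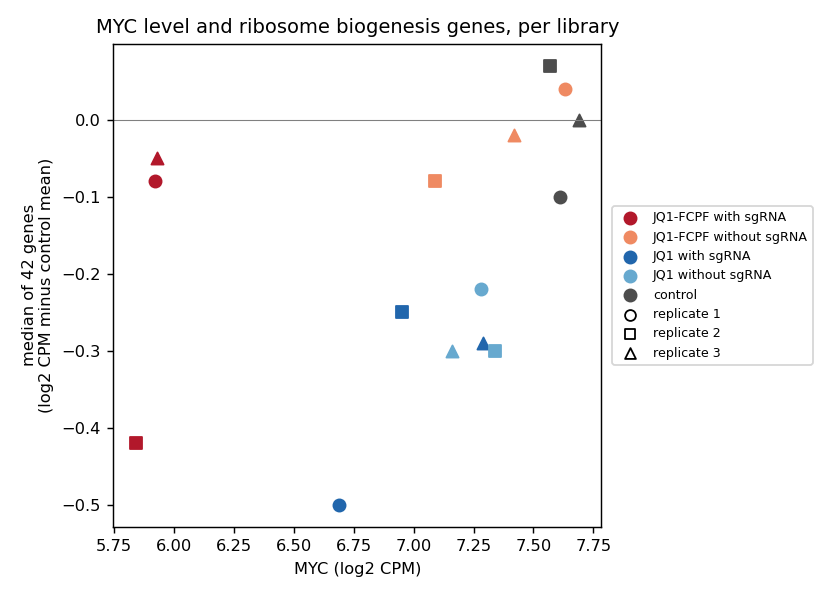
MYC level in log2 CPM (horizontal axis) and median of the 42 genes as log2 CPM minus the control mean (vertical axis), 1 point per library, with colours for groups and symbols for replicates. Of the 3 JQ1-FCPF libraries with sgRNA at the far left, 2 lie near 0 and replicate 2 at -0.42, and the 6 JQ1 libraries lie between -0.50 and -0.22 at higher MYC.

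Genes with and without the E-box in their nearest promoter window were set side by side, as a description. The 12 genes with it had a median log2 fold change of -0.16 in JQ1-FCPF with against without sgRNA, and the 22 without it -0.06. Without replicate 2 of JQ1-FCPF with sgRNA these medians were -0.05 and -0.02. For JQ1 without sgRNA against control the medians were -0.38 with the E-box and -0.25 without it, and 8 of 12 and 8 of 22 genes were called lower. For JQ1 with sgRNA against control they were -0.40 with it and -0.32 without it, or -0.34 and -0.26 without replicate 1 of JQ1 with sgRNA. The order depended on the choice of window. With the E-box counted in any window of a gene, the medians were -0.33 for the 17 genes with it and -0.31 for the 17 without it in JQ1 without sgRNA against control, and -0.29 and -0.36 in JQ1 with sgRNA against control. In JQ1-FCPF with against without sgRNA they were then -0.15 and -0.04. PPAN, PPRC1 and NOP56, whose windows are shown above without capitals, were each called in several comparisons, and FBL, whose window holds the E-box, was called in none.

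Genes of the same pathways outside the 42 were counted in 6 lists. In JQ1-FCPF with against without sgRNA, 2 of 42 further small-subunit factors, 2 of 47 further large-subunit factors, none of 13 further polymerase I genes, 2 of 26 polymerase III genes and 1 of 14 further snoRNP genes were lower, and none was higher. Beside these stands the 4.20% of all tested genes called lower, so these counts are read as no result about the lists. Without replicate 2 of JQ1-FCPF with sgRNA the counts were 1, 2, 0, 1 and 1. BRIX1, a large-subunit assembly factor, had 109 ± 3.58 CPM with sgRNA and 144 ± 5.53 CPM without (log2 fold change -0.41 ± 0.08 SE, edgeR Benjamini-Hochberg adjusted p = 0.00497). Of 40 MYC targets outside the nucleolus 2 were lower and 1 higher, and E2F2, a cell cycle transcription factor, had 13.1 ± 1.70 CPM with sgRNA and 26.6 ± 1.76 CPM without (-1.03 ± 0.12 SE, adjusted p = 1.29e-05). Under JQ1 with against without sgRNA, and for JQ1-FCPF without sgRNA against control, no gene of these 6 lists was called.

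For JQ1 without sgRNA against control, 11 of 42 small-subunit, 8 of 47 large-subunit, 2 of 13 polymerase I, 6 of 26 polymerase III, 0 of 14 snoRNP genes and 7 of 40 other MYC targets were lower, with 1 large-subunit and 2 polymerase III genes higher, beside 6.23% of all tested genes lower and 6.07% higher. DHX37, a helicase that releases U3 from the small-subunit precursor, had 71.6 ± 1.10 CPM in JQ1 without sgRNA and 115 ± 9.55 CPM in control (log2 fold change -0.68 ± 0.13 SE, edgeR Benjamini-Hochberg adjusted p = 0.00262). NOL6, another small-subunit factor, had 61.5 ± 2.47 CPM in JQ1 without sgRNA and 97 ± 10.3 CPM in control (-0.66 ± 0.11 SE, adjusted p = 0.00208). DHX37 and NOL6 were called under all 13 alternatives.

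For JQ1 with sgRNA against control, the counts lower were 14 of 42 small-subunit, 12 of 47 large-subunit, 4 of 13 polymerase I, 4 of 26 polymerase III, 2 of 14 snoRNP genes and 6 of 40 other MYC targets. Higher were 2 polymerase III genes and 1 MYC target, and of all tested genes 7.04% were lower and 7.21% higher. Without replicate 1 of JQ1 with sgRNA the counts lower were 9, 5, 4, 3, 2 and 5 in the same order. POLR1G, a subunit of RNA polymerase I, had 17 ± 2.68 CPM in JQ1 with sgRNA and 31.6 ± 3.61 CPM in control (log2 fold change -0.90 ± 0.16 SE, edgeR Benjamini-Hochberg adjusted p = 0.00216). URB2, a large-subunit factor in yeast, had 23.9 ± 2.14 CPM in JQ1 with sgRNA and 38.8 ± 0.817 CPM in control (-0.70 ± 0.12 SE, adjusted p = 0.00173). For JQ1-FCPF with sgRNA against control the counts lower were 2, 2, 1, 3 and 1 in the 5 pathway lists, in the same order, and 4 of 40 MYC targets, with 1 polymerase III gene higher, beside 4.79% of all tested genes lower and 2.42% higher. Without replicate 2 of JQ1-FCPF with sgRNA the counts lower were 1, 2, 0, 2 and 1, and 4 MYC targets. URB2 again had 23.9 CPM, with an SD of 4.21 (-0.70 ± 0.12 SE, adjusted p = 0.00116).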

How the data were processed

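The deposited data are raw read counts per gene, 1 table per library for 15 libraries of K562 cells, with the columns that read-summarising programs write, per the file headers. The sources used here do not give the aligner, annotation, library kit or use of strand. GENCODE release 29 held 56898 of the gene IDs, 96.3% of them and all 42 members with the same start and end, so coordinates are GRCh38. Symbols were found for 40907 IDs.

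Tests used edgeR 4.0.16 under R 4.3.3. filterByExpr kept 15517 genes and TMM scaled the libraries. A quasi-likelihood model, with a separate mean for each of the 5 groups, took in all 15 libraries together (biological coefficient of variation 11.1%). Genes were called at a Benjamini-Hochberg adjusted p under 0.05 over all genes tested. CPM values were computed from the deposited counts and TMM factors, and log2 CPM carries a prior count of 2. The summed marker levels, and the marker counts above 1 CPM, used library totals over all genes counted, without TMM factors. The MYC slope model adds MYC log2 CPM to the group means. The code was tested on simulated data.

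The members and gene lists were chosen with earlier results of these data known. All members may be named, with up to 8 of the largest changes per comparison in full, and up to 3 genes per other list with the smallest p. Alternatives were other scalings, no filter, DESeq2 1.42.0, a replicate block, only the groups compared, and leaving out libraries. Totals of 12625669 to 17544518 counts keep counting error small for genes at high levels, but less so for genes at a few CPM, such as COL1A1. The most alike pair of libraries within a group still differed beyond counting noise (chi-square per degree of freedom 2.76), so each was counted as 1 sample.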

Additional observations from a re-analysis of the deposited data

Results flagged for a closer look

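The difference between the compounds in the response to sgRNA was tested directly, and 122 of all tested genes were called, 92 more negative and 30 more positive under JQ1-FCPF. MYC, E2F2 and LMO2 were the ones called among the genes and lists described here. For MYC the sgRNA effect under JQ1-FCPF minus that under JQ1 was -1.24 ± 0.19 SE on the log2 scale (edgeR, Benjamini-Hochberg adjusted p = 0.00187). Under JQ1-FCPF all 3 MYC libraries with sgRNA lay below all 3 without it, whereas under JQ1 the groups overlapped. For E2F2, a MYC target outside the nucleolus, the difference was -1.12 ± 0.17 SE (adjusted p = 0.00187). E2F2 averaged 13.1 ± 1.70 CPM in JQ1-FCPF with sgRNA, 26.6 ± 1.76 CPM in JQ1-FCPF without sgRNA, 24.3 ± 0.90 CPM in JQ1 with sgRNA and 22.7 ± 2.95 CPM in JQ1 without sgRNA (SD, n = 3 each). MYC and E2F2 were called in the interaction under each of the 19 alternatives tried, with -1.37 to -1.06 for MYC and -1.24 to -1.04 for E2F2. For LMO2, an erythroid transcription factor taken as a K562 marker, the difference was -0.64 ± 0.14 SE (adjusted p = 0.0255). LMO2 averaged 40.4 ± 3.82 CPM in JQ1-FCPF with sgRNA, 67.9 ± 4.97 CPM in JQ1-FCPF without sgRNA, 55.3 ± 1.73 CPM in JQ1 with sgRNA and 59.6 ± 1.96 CPM in JQ1 without sgRNA. It lost the call under 8 of the 19 alternatives, each without 1 library, with -0.73 to -0.59 over all 19 and adjusted p up to 0.0981. None of the 42 ribosome biogenesis genes was called in the interaction.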

How the results depend on the processing

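Counts of the 42 genes called moved by over 1.5 times under several settings. With only the groups compared in the fit, the counts were 3 for JQ1-FCPF with against without sgRNA, 5 for JQ1-FCPF with sgRNA against control and 22 for JQ1-FCPF against JQ1 without sgRNA. With no filter on low counts they were 1 for the interaction and 4 for JQ1-FCPF against JQ1 with sgRNA. That last comparison gave 1 with DESeq2 size factors, beside 192 of all tested genes higher and 260 lower. It gave 4 with DESeq2, where the count over all tested genes stayed within 1.5 times the main one. Without both libraries that stood apart the counts were 2 for the interaction, 18 for JQ1-FCPF against JQ1 with sgRNA and 25 without sgRNA.

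Leaving out 1 library at a time gave 3 to 9 genes for JQ1-FCPF with against without sgRNA, 0 to 0 for JQ1 with against without sgRNA, 0 to 2 for the interaction, 3 to 10 for JQ1-FCPF with sgRNA against control, 0 to 0 for JQ1-FCPF without sgRNA against control, 10 to 20 for JQ1 with sgRNA against control, 4 to 12 for JQ1 without sgRNA against control, 0 to 20 for JQ1-FCPF against JQ1 with sgRNA, 0 to 4 without sgRNA and 0 to 1 for the MYC slope. Libraries with the same letter in their titles did not vary together (30 pairs, median correlation -0.01, 4 over 0.1), so the letters were not taken to pair libraries. A replicate block gave 7 genes for JQ1-FCPF with against without sgRNA, 9 for JQ1-FCPF with sgRNA against control, 20 for JQ1 with sgRNA against control, 14 for JQ1 without sgRNA against control and 9 for JQ1-FCPF against JQ1 without sgRNA. It gave 0 in the other comparisons.

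Counts over all tested genes moved more. For JQ1-FCPF with against without sgRNA there were 970, with 1600 without both libraries that stood apart, 351 with only the groups compared and 428 to 1129 with 1 library left out. For JQ1-FCPF with sgRNA against control there were 1119 (1745, 543, and 542 to 1201 in the same order), for JQ1-FCPF against JQ1 with sgRNA 458 (3176, 11, and 68 to 2757) and without sgRNA 1210 (3554, 2959, and 76 to 973). For JQ1 without sgRNA against control there were 1908 (4234, 4521, and 430 to 1338), and for JQ1 with sgRNA against control 2211 (3582 without both libraries, and 726 to 1858 with 1 left out). The interaction had 122 (511, 81, and 50 to 346), with 316 under no filter and 255 with DESeq2. No filter also gave 822 for JQ1-FCPF against JQ1 with sgRNA, and 80 in place of 2 for JQ1 with against without sgRNA, where 9, 0 and 5 were called without both libraries, with only the groups compared and with DESeq2. For JQ1-FCPF without sgRNA against control 1 gene was called, and at most 4 under these settings. The MYC slope had 0 calls, with 452 under no filter, 322 under the block and 24 without both libraries.

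Values under the alternatives were followed for MYC and for genes already called in the main fit, so no gene other than MYC could gain a call. Of these values 1722 kept their direction and side of the threshold, 412 lost the call, 3 gained it and 0 changed sign. The 3 gains were of MYC in JQ1 without sgRNA against control. Counts in the other lists were recomputed too, and the E-box medians without the libraries that stood apart or with any window of a gene, both additions made after seeing the data. The list counts ran from 4 to 19 small-subunit and 2 to 20 large-subunit genes for JQ1 with sgRNA against control, and from 4 to 18 and 1 to 27 for JQ1 without sgRNA against control. The cause of these shifts was not tested. At these depths counting error is small for genes at high levels, and the 3 libraries per group limit what could be called.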

Other observations

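POLR3GL, the subunit that takes the place of POLR3G in one form of RNA polymerase III, was higher in both JQ1 groups than in control. It averaged 66.5 ± 5.62 CPM in JQ1 with sgRNA and 68.5 ± 3.61 CPM in JQ1 without sgRNA, against 49.6 ± 5.50 CPM in control (SD, n = 3 each). The rise was not particular to JQ1, as POLR3GL averaged 63.5 ± 5.84 CPM in JQ1-FCPF with sgRNA. In JQ1-FCPF without sgRNA it averaged 51.9 ± 1.68 CPM. The log2 fold changes of JQ1 against control were 0.42 ± 0.10 SE with sgRNA (edgeR, Benjamini-Hochberg adjusted p = 0.0104) and 0.47 ± 0.10 SE without sgRNA (adjusted p = 0.00696). Without control replicate 3 neither was called, nor was the difference with sgRNA without JQ1 replicate 2, and the highest adjusted p over the alternatives was 0.0743 with sgRNA and 0.057 without. POLR3G itself was called in no comparison.

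TFRC, the transferrin receptor, which is a MYC target and an erythroid marker, averaged 260 ± 55.1 CPM in JQ1-FCPF with sgRNA and 421 ± 43.9 CPM in control, a log2 fold change of -0.69 ± 0.13 SE (edgeR, Benjamini-Hochberg adjusted p = 0.00237) that was called under all 13 alternatives. MTHFD2, an enzyme of mitochondrial folate metabolism, averaged 298 ± 97.1 CPM in JQ1-FCPF with sgRNA and 190 ± 26.2 CPM in JQ1-FCPF without sgRNA (0.65 ± 0.15 SE, adjusted p = 0.0122). It was the only gene of the 6 other lists called higher in that comparison, and the call was lost without replicate 2 or 3 of JQ1-FCPF without sgRNA and with only the groups compared in the fit (log2 fold change 0.36 to 0.79 and adjusted p up to 0.0969 over the alternatives).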
